A study of Mus musculus with 2 samples.

Results

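The Mir23-Mir27-Mir24 genes of the mouse form 2 clusters of 3 hairpins each, Mir23a, Mir27a and Mir24-2 on chromosome 8 and Mir23b, Mir27b and Mir24-1 on chromosome 13. They were taken by name, by matching the identifiers in the count tables to GENCODE symbols, and the rule uses no measured value. Of these 6 genes, 5 were among the 1973 microRNA genes in the tables, and Mir24-1 was not listed under its own identifier. The counts came from small RNA of hearts of B6NCrl mouse embryos at embryonic day 10.5, in 2 libraries that the labels call biological replicates. Replicate 1 was a pool of 69 embryos of both sexes and replicate 2 a pool of 51, both called healthy, and no treatment or mutation was named. There was 1 group and no control, so the comparisons are between the clusters within each library and between the libraries.

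A microRNA hairpin is cut from a longer transcript in the nucleus and trimmed in the cytoplasm to a short mature strand, named 5p or 3p after the arm of the hairpin it comes from. The mature strand guides a silencing complex to messenger RNAs that pair with its seed, bases 2 to 8. Hairpins of a cluster are made from a shared transcript, and the paralogous clusters studied here are known from endothelial cells and vessel growth. In mouse heart, miR-27b is known to target Mef2c, a transcription factor of heart muscle, and miR-24 is known from the control of cell death.

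The 3p strands of the clusters are miR-23a-3p, miR-23b-3p, miR-27a-3p, miR-27b-3p and miR-24-3p. Mature strands are printed below because the paralogs differ so little that they decide which reads can be assigned to a gene. Sequences are from RefSeq (GRCm38.p6), run 5′ to 3′ and have the seed in capitals. The first 3 lie on the plus strand of chromosome 8 and the next on the plus strand of chromosome 13. The last 2 are the 5p arms of Mir24-2 on chromosome 8 and of Mir24-1 on chromosome 13.
miR-23a-3p: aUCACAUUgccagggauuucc
miR-27a-3p: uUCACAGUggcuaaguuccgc
miR-24-3p: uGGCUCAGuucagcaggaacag
miR-27b-3p: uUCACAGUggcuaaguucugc
miR-24-2-5p: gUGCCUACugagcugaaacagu
miR-24-1-5p: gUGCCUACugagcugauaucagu

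miR-27a-3p and miR-27b-3p share their seed and 20 of 21 bases, and differ by C19U, counted from the 5′ end of miR-27a-3p. The first 18 bases of miR-27a-3p occur in both Mir27 hairpins, and a read that starts at its first base needs 19 bases to belong to Mir27a alone. The same holds for miR-23a-3p, whose first 18 bases also occur in the Mir23b hairpin. miR-24-3p is a different case, since all of its 22 bases occur in both the Mir24-1 and the Mir24-2 hairpin, and no read confined to it can be given to either. The Mir24 hairpins can be told apart on their 5p arms. Compared base by base without gaps, these differ by A17U, C19U, A20C, G21A and U22G, counted from the 5′ end of miR-24-2-5p. With a gap allowed, they differ by A17U and an inserted U in miR-24-1-5p.

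In the tables, reads mapped to several places were in a row of their own, which held 23.3% of all reads in replicate 1 and 23.5% in replicate 2. The tables count hairpins and do not separate arms. Reads confined to miR-24-3p would fall in that row, so the counts of Mir24-2 cannot be read as the level of miR-24-3p, and how many reads of the Mir23 and Mir27 genes fell there is unknown. Among listed genes with mature sequences in the RefSeq table, 87 have an arm identical to that of another gene, and 2 of them (2.30%) reached 1000 CPM (counts per 1000000 own-strand gene counts) in both libraries. Of the 829 genes with no such arm, 72 (8.69%) did. At lower levels the order was the other way, since 49.4% of the genes with a shared arm and 36.7% of those without had at least 10 counts in both libraries, and their median levels were 2.47 and 0.585 CPM.

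Both clusters lie on the plus strand (mm10, GENCODE M21). Mir23a is at chromosome 8, 84208518 to 84208592, Mir27a at 84208672 to 84208758 and Mir24-2 at 84208815 to 84208921, so the cluster spans 404 bases. Mir23a and Mir27a overlap no other annotated gene, and Mir24-2 overlaps the hairpin Mir3074-2 on the opposite strand. Only at its 3′ end does Mir24-2 overlap an exon of the long non-coding RNA gene Gm26532 on its own strand. Counted from the first base of Mir23a, Mir24-2 runs from 297 to 403 and Gm26532 starts at 402. Mir23b is at chromosome 13, 63300484 to 63300557, Mir27b at 63300712 to 63300784 and Mir24-1 at 63301208 to 63301275, a span of 792 bases. This cluster lies inside the peptidase gene 2010111I01Rik, also called Aopep, with Mir23b in an intron and Mir27b and Mir24-1 overlapping annotated exons. The DNA repair gene Fancc runs over it on the opposite strand. The listed identifiers of Mir23b and Mir27b carry an earlier version number than M21, so their extent in the annotation used for counting may differ from these positions.

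**Figure D1:**
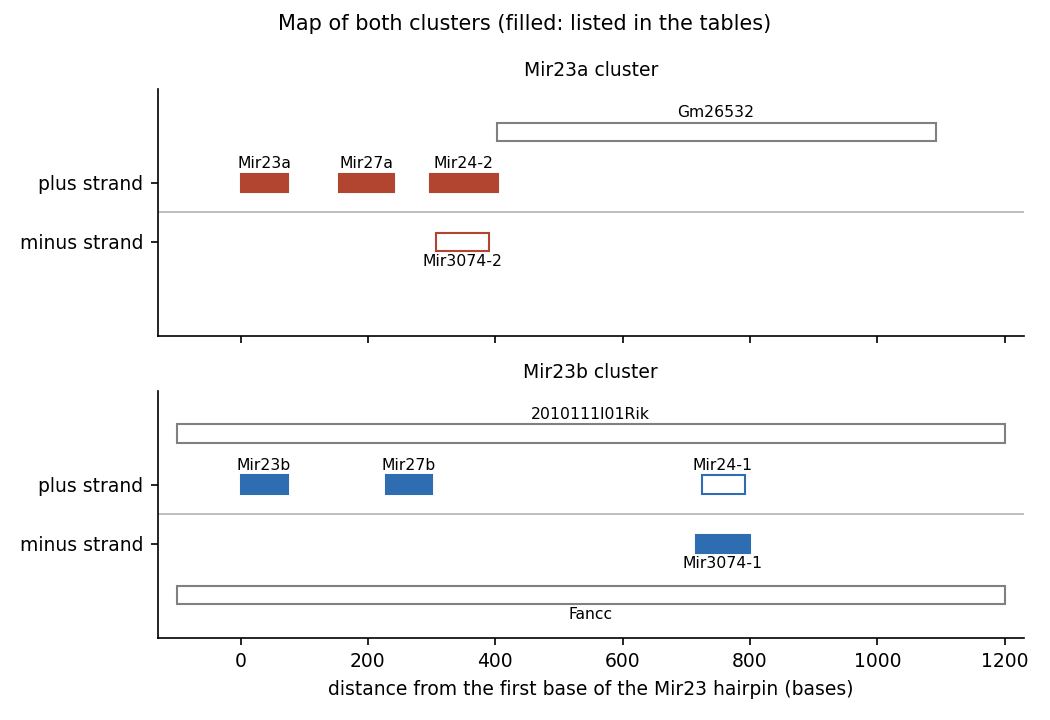
Maps of the Mir23a cluster (red, above) and the Mir23b cluster (blue, below), with distance from the first base of the Mir23 hairpin in bases on the x axis and strands above and below the line. Filled hairpins are listed in the count tables, open hairpins are not, and grey outlines are other genes, drawn to the edge of the map where they run on. The cluster spans are 404 and 792 bases.

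The Mir23 hairpins held nearly all counts of both clusters. Mir23a had 12616 CPM in replicate 1 and 18175 CPM in replicate 2, a mean of 15396 ± 3931 (SD, n = 2), and ranked 18 and 12 among all listed genes. Mir23b had 10325 CPM in replicate 1 and 12019 CPM in replicate 2, a mean of 11172 ± 1198, and ranked 23 and 18. Together they made up 93.6% of the counts of the 5 listed genes in replicate 1 and 94.9% in replicate 2. Mir23a was the higher of the pair in both libraries, and its lowest value lay above the highest value of Mir23b.

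The Mir27 hairpins were lower, and here the gene on chromosome 13 led. Mir27a had 287 CPM in replicate 1 and 309 CPM in replicate 2, a mean of 298 ± 15.1, at ranks 156 and 137. Mir27b had 1045 CPM in replicate 1 and 1026 CPM in replicate 2, a mean of 1036 ± 13.5 (SD, n = 2), at ranks 100 and 82. Both values of Mir27b lay above both values of Mir27a.

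Mir24-2, as far as it was counted, was the lowest of the 5. It had 234 CPM in replicate 1 and 278 CPM in replicate 2, a mean of 256 ± 31.1 (SD, n = 2), on 976 and 1333 counts. The order Mir23a, Mir23b, Mir27b, Mir27a, Mir24-2 was the same in both libraries. Mir24-2 and Mir27a were neighbours in that order, with a log2 ratio of -0.29 (95% exact interval -0.42 to -0.17) in replicate 1 and of -0.15 (-0.26 to -0.04) in replicate 2. The libraries had 4163656 and 4789068 own-strand gene counts, and these intervals cover counting error only.

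**Figure D2:**
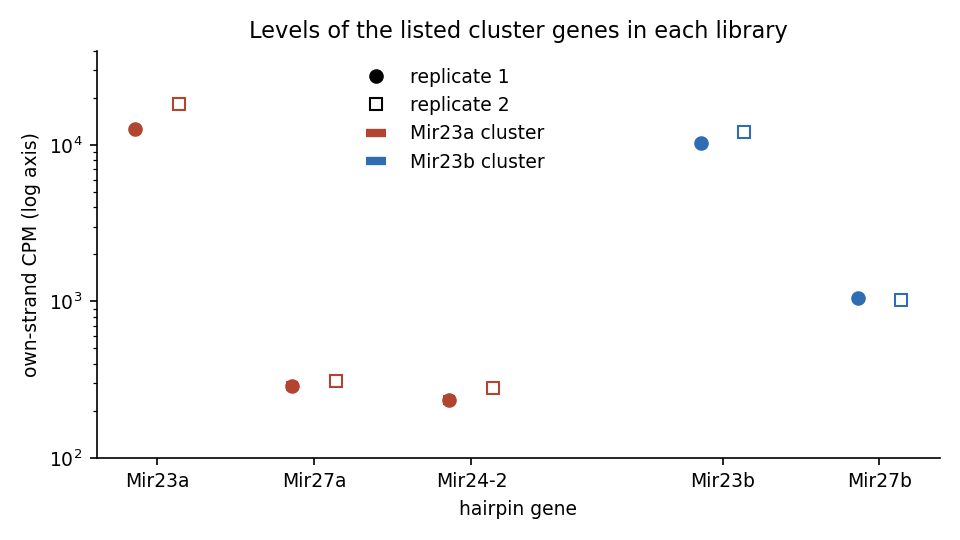
Own-strand CPM (log axis) of the 5 listed genes, with the Mir23a cluster in red and the Mir23b cluster in blue. Filled circles are replicate 1, open squares are replicate 2, and bars, mostly smaller than the symbols, are 95% exact intervals. The Mir23 hairpins lie at or above 10325 CPM, and Mir27a and Mir24-2 at or below 309 CPM.

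The unlisted Mir24-1 lies under the listed hairpin Mir3074-1, annotated on the opposite strand at chromosome 13, 63301199 to 63301283. The Mir3074-1 row held 572 counts on its own strand and 237 on the other in replicate 1, and 513 and 248 in replicate 2. Both strands together came to 194 CPM for replicate 1 and 159 CPM for replicate 2. Its identifier also carries an earlier version than M21, so which strand the row calls its own was not checked, and these reads cannot be assigned to Mir24-1 or Mir3074-1. At Mir24-2, the strand that holds Mir3074-2 had 0 reads in replicate 1 and 1 in replicate 2. On the strand opposite to Mir23a, Mir27a and Mir23b there were 0 reads in both libraries, and opposite to Mir27b 0 in replicate 1 and 3 in replicate 2.

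Summed over listed genes, the Mir23a cluster exceeded the Mir23b cluster in each library. The Mir23a cluster held 1.31% of own-strand counts in replicate 1 and 1.88% in replicate 2, and the Mir23b cluster 1.14% in replicate 1 and 1.30% in replicate 2. The log2 ratio of the Mir23a cluster to the Mir23b cluster came to 0.21 (95% exact interval 0.19 to 0.23) for replicate 1 and 0.52 (0.51 to 0.54) for replicate 2, with a mean of 0.37 ± 0.22 (SD, n = 2). The direction was the same in 2 of 2 libraries, but an exact two-sided sign-flip test on 2 libraries cannot go below 0.5, so the mean was not tested against 0. The sum of the Mir23a cluster holds 3 hairpins and that of the Mir23b cluster 2. Without Mir24-2 the mean was 0.34.

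The paralogous pairs went opposite ways. Mir23a over Mir23b gave a log2 ratio of 0.29 (95% exact interval 0.27 to 0.31) for replicate 1 and 0.60 (0.58 to 0.61) for replicate 2, with a mean of 0.44 ± 0.22 (SD, n = 2). Mir27a over Mir27b gave a linear ratio of 0.275 (0.258 to 0.293) for replicate 1 and 0.301 (0.284 to 0.319) for replicate 2, with a mean log2 ratio of -1.80 ± 0.09. The third pair could not be compared, since Mir24-1 was not listed.

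Within the clusters, the step down from Mir23 to Mir27 was larger on chromosome 8. For every 1000 counts of the Mir23 hairpin beside it, Mir27a had 22.8 in replicate 1 and 17.0 in replicate 2. Mir27b had 101 in replicate 1 and 85.4 in replicate 2. The first ratio was 4.44-fold lower than the second in replicate 1 and 5.02-fold lower in replicate 2, a log2 difference of -2.24 ± 0.13 (SD, n = 2). As a ratio of ratios this came to 0.225 (95% exact interval 0.211 to 0.240) for replicate 1 and 0.199 (0.187 to 0.211) for replicate 2. Mir24-2 had 18.6 counts per 1000 of Mir23a in replicate 1 and 15.3 in replicate 2. These are ratios of counted reads within a library and do not depend on scaling between libraries.

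**Figure D3:**
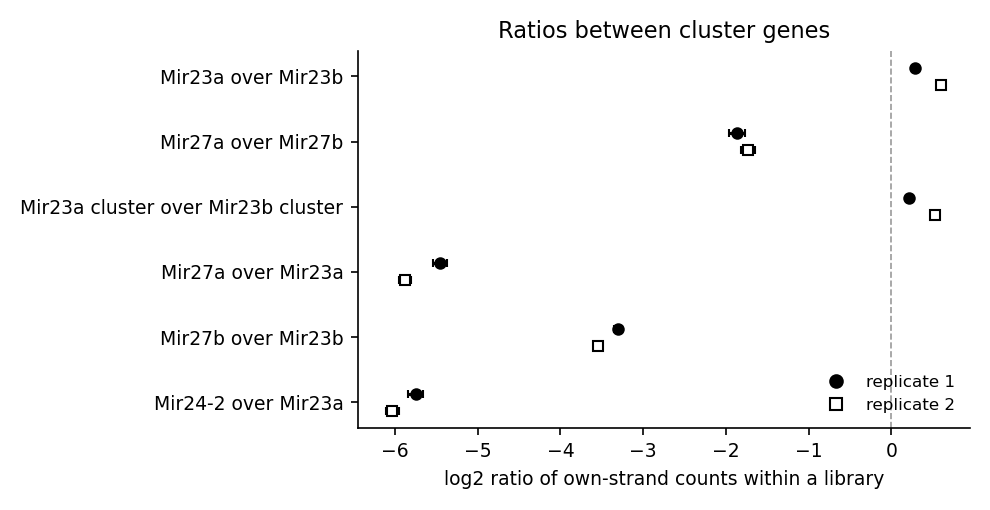
Log2 ratios of own-strand counts within each library, with replicate 1 as filled circles, replicate 2 as open squares and 95% exact intervals as bars. Mir23a over Mir23b and the cluster sums lie above 0, and Mir27a over Mir27b lies below 0 in both libraries.

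Unequal counts within a cluster were also found at other microRNA clusters. Over 10 other paralogous clusters, the highest member exceeded the lowest by a median of 10.4-fold in replicate 1 and 10.9-fold in replicate 2. Those clusters have 2 to 6 listed members, and such a fold can only stay or rise as members are added. In the Mir23a cluster this fold was 53.8 in replicate 1 and 65.3 in replicate 2, with Mir24-2 as the lowest member. In the Mir23b cluster, where Mir24-1 was not listed, it was 9.88 and 11.7. Between Mir23 and Mir27 alone, which both clusters have listed, Mir23a exceeded Mir27a 43.9-fold in replicate 1 and 58.9-fold in replicate 2. Among the other clusters with 2 listed members, the largest fold was that of Mir181a-1 over Mir181b-1. It was 36.3 in replicate 1 and 31.3 in replicate 2. In each library 3 of the 10 other clusters had a larger fold than the Mir23a cluster, and 5 a larger one than the Mir23b cluster. The lowest members of those 3, which have 3 to 6 listed members, were Mirlet7c-1, Mirlet7a-2 and Mir19b-1. Since reads mapped to several places are left out, a fold can hold uncounted reads of its lowest member, and their part was not tested. The widest in replicate 1 was the cluster of Mir99a, Mirlet7c-1 and Mir125b-2, with 1535-fold, and the widest in replicate 2 the Mir17 cluster, with 1810-fold. The narrowest was Mir221 with Mir222, at 1.48-fold in replicate 1 and 1.04-fold in replicate 2.

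**Figure D4:**
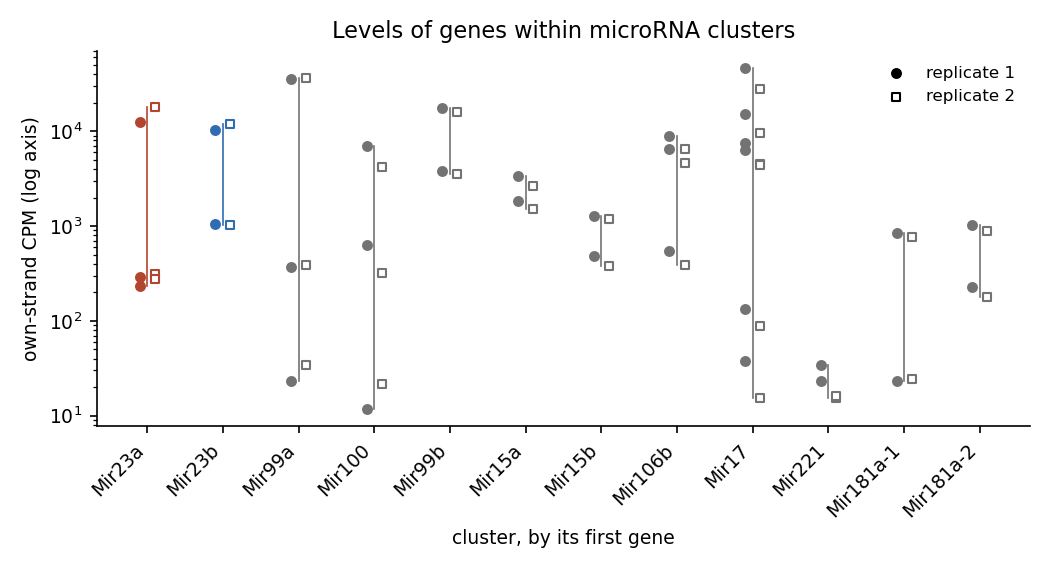
Own-strand CPM (log axis) of every listed member of each cluster, named by its first gene, with replicate 1 as filled circles and replicate 2 as open squares. Vertical lines join the lowest and highest value of a cluster. The Mir23a cluster (red) spans 53.8-fold and 65.3-fold, with Mir24-2 lowest. The Mir23b cluster (blue), without the unlisted Mir24-1, spans 9.88-fold and 11.7-fold.

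All 5 listed genes were lower in replicate 1 than in replicate 2 after TMM scaling, a trimmed-mean scaling of library sizes. The exact two-sided binomial test with Benjamini-Hochberg adjustment over 424 tested genes called all 5. It called 61.6% of all tested genes, and 30.4% as lower in replicate 1. This test compares 2 libraries beyond counting error and says nothing about conditions, and the difference has no replicate check of its own. The median log2 ratio of the members was -0.49, beside 0.01 over all tested genes. Mir23a had the largest difference, at -0.80 (95% exact interval -0.82 to -0.79), which is 1.74-fold lower in replicate 1. Mir24-2 was at -0.52 (-0.64 to -0.40), Mir23b at -0.49 (-0.51 to -0.48), Mir27a at -0.38 (-0.49 to -0.27) and Mir27b at -0.25 (-0.31 to -0.19). The largest adjusted p of the 5 was 4.58e-11, at Mir27a. The median tested gene differed 1.38-fold in either direction.

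The scaling matters for the smaller of these differences. With total own-strand counts as the scaling, which moves the median gene by 0.27, 3 of the 5 were lower in replicate 1. Over all tested genes, 61.8% were called under this scaling, and 15.6% as lower in replicate 1. Mir23a was then at -0.53, Mir24-2 at -0.25 and Mir23b at -0.22, while Mir27a at -0.10 and Mir27b at 0.03 did not pass the exact binomial test (adjusted p = 0.0998 and 0.459). The ratio of the clusters does not depend on scaling, and it was lower in replicate 1, with a conditional odds ratio of 0.803 (95% exact interval 0.791 to 0.816, Fisher's exact test p = 1.49e-158, adjusted over 8 ratios 5.97e-158). Mir23a over Mir23b had an odds ratio of 0.808 (0.795 to 0.822) and Mir27a over Mir27b of 0.914 (0.837 to 0.997, Fisher's exact test adjusted p = 0.0491). Mir23a and Mir27a were thus lower relative to their partners in replicate 1, with the interval of the Mir27 pair ending close to 1. Mir24-2 had no listed partner. Of the 8 ratios, Mir24-2 over Mir27a did not pass (odds ratio 0.905, 0.807 to 1.01, adjusted p = 0.0807 by the same exact test). These tests take reads as units and cover counting error only, so they do not set these ratios apart from other genes. After TMM scaling, 61.6% of all tested genes differed between the libraries beyond counting error, and no share over other gene pairs is given here.

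**Figure D5:**
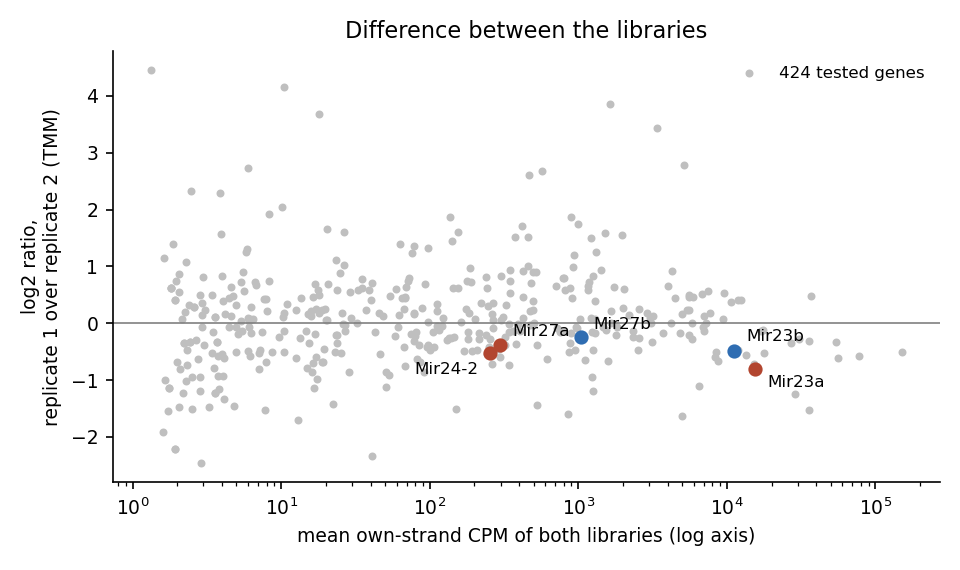
Log2 ratio of replicate 1 over replicate 2 after TMM scaling against mean own-strand CPM (log axis) for 424 tested genes (grey), with the Mir23a cluster in red and the Mir23b cluster in blue. The 5 members lie between -0.80 and -0.25, and 45 genes lie below Mir23a, the lowest of them.

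Markers of several cell types moved between the libraries too. The heart muscle genes Mir208a, Mir208b and Mir499 summed to 34740 CPM in replicate 1 and 69048 CPM in replicate 2. After TMM scaling 3 of 3 were called lower in replicate 1, beside 30.4% of all tested genes. CPM here are scaled by total own-strand counts and the calls by TMM, so the 2 can differ. Of the endothelial markers, Mir126b was not listed and Mir126a had 53306 CPM in replicate 1 and 55504 CPM in replicate 2. Mir126a was called lower in replicate 1, at a log2 ratio of -0.33. The smooth muscle pair Mir143 and Mir145a summed to 69745 CPM and 86022 CPM, with 2 of 2 called lower in replicate 1. The 3 red blood cell genes summed to 1160 CPM and 1713 CPM, with 2 of 3 called lower. Most of the latter sum was Mir451a, with 947 CPM in replicate 1 and 1509 CPM in replicate 2. Mir486 had 93.2 and 101 CPM, while Mir144 had 120 and 103 CPM and did not pass the exact binomial test. The 5 epithelial genes were higher in replicate 1, with 5096 CPM in replicate 1 and 1332 CPM in replicate 2, as was the liver gene Mir122 with 3078 CPM and 175 CPM. All 5 and Mir122 were called higher, beside 61.6% of all tested genes called in either direction. Of the listed leukocyte genes, Mir223 had 240.2 CPM in replicate 1 and 118 CPM in replicate 2, and Mir155 had 213.8 and 214.2 CPM. After TMM scaling Mir223 was called higher in replicate 1, at a log2 ratio of 0.75, and Mir155 lower, at -0.28. Of 5 listed neuronal genes, copies of Mir124a and Mir9, 4 had no count in either library. Since reads mapped to several places are left out, this does not show that their mature strands were absent. The part of tissue make-up in the members' differences was not tested, and in bulk tissue fewer cells of a type and less RNA per cell cannot be told apart.

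Among other microRNAs known from vessel growth, levels ran from far above to far below the members. Of 11 such genes, 10 were listed, and in the same exact binomial test 3 were lower in replicate 1, 3 were higher and 4 did not pass, with a median log2 ratio of 0.08. The 6 of 10 called are near the 61.6% called over all tested genes. Mir126a, which lies in the endothelial gene Egfl7, averaged 54405 ± 1554 CPM (SD, n = 2) and Mir130a 17406 ± 1387 CPM. Mir210, the microRNA induced by low oxygen, averaged 860 ± 95.6 CPM, close to Mir27b, and Mir221 and Mir222 had at most 34.6 CPM. The 3 lower genes were Mir126a, Mir130a and Mir210, of which Mir130a had more CPM in replicate 1 (18387) than in replicate 2 (16425), so that its direction turns with total counts as the scaling.

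By level over the 2 libraries, the genes nearest to Mir23a were Mir208a, Mir30a and Mir21a, at distances of 0.07, 0.29 and 0.38 in log2(CPM + 1). Those nearest to Mir23b were Mir652, Mir30a and Mir22, at 0.13, 0.39 and 0.53. Mir208a had 12836 CPM in replicate 1 and 17434 CPM in replicate 2, and Mir652 had 11074 and 12762 CPM. No gene beside Mir27a and Mir27b in the RefSeq table shares the seed of the miR-27-3p strands. The miR-24-3p seed is shared by Mir6413, Mir6410, Mir6369 and Mir5124b, which were listed with 0 counts in both libraries, and 0 counts allows up to 0.721 CPM in replicate 1 and 0.626 CPM in replicate 2.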

How the data were processed

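Small RNA reads of 2 heart libraries were counted by the authors on mm10 with GENCODE M4 genes, per the README files deposited with them. The deposited values are raw counts per hairpin, over both strands, on the gene's own strand and on the other strand. Aligner: not given in the sources used here. Rows that name no gene (unmapped 26.3% and 25.5%, mapped to several places 23.3% and 23.5%, outside genes 8.98% and 7.41%) were left out of library sizes. Levels are own-strand counts divided by their sum over genes (CPM), with no length scaling, since the printed mature strands have 21 to 23 bases. Symbols and positions came from GENCODE M21 by stable identifier, which matched 1894 of 1973 identifiers. Mature sequences were matched by symbol in RefSeq for 927 listed genes. Genes reaching 10 counts in either library were compared by an exact two-sided conditional binomial test on TMM library sizes (edgeR 4.0.16), with Benjamini-Hochberg adjustment at 0.05 and a prior count of 0.5 in log2 ratios. Exact 95% intervals and Fisher's test used scipy 1.17.1. The binomial test was tested on simulated data. Alternatives were counts of both strands, size factors of DESeq2 1.42.0, total counts, no filter, other denominators and fewer genes. Genes named are the members, their neighbours within 10 kb, genes sharing a seed, the 3 nearest in level to each Mir23 gene, and fixed lists. The members and lists were chosen with earlier results of these data known. The spread between the libraries holds pool and library preparation differences together.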

Additional observations from a re-analysis of the deposited data

Results flagged for a closer look

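Reads lay on both strands of the Mir3074-1 row, which covers the unlisted Mir24-1. The strand opposite to the row's own had 56.9 CPM of own-strand counts in replicate 1 and 51.8 CPM in replicate 2, above the 0.721 and 0.626 CPM that a count of 0 allows. This strand enters the comparisons of the clusters only in the alternative that adds the row to the Mir23b cluster. No control samples exist, and which gene these reads came from was not tested.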

How the results depend on the processing

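The log2 ratio of the Mir23a cluster to the Mir23b cluster kept its sign under every alternative run. It stayed within 1 SD, from 0.34 with Mir23 and Mir27 genes only to 0.44 with Mir23 genes only. It was 0.21 without replicate 2 and 0.52 without replicate 1, and with 2 libraries such values lie within 1 SD by construction. Counts over both strands could hardly move it, since no member had more than 3 reads on the opposite strand. Adding both strands of the Mir3074-1 row to the Mir23b cluster, an alternative chosen after seeing the data, gave 0.35. The difference of this ratio between the libraries ranged from -0.32 to -0.31 on the log2 scale and passed Fisher's exact test each time. The members called as different between the libraries numbered 5 under counts over both strands, DESeq2 size factors, no filter and without the most abundant gene, and 3 under total counts, where Mir27b turned to 0.027, since this scaling adds 0.27 to the log2 ratio of every gene. The summed share of the members was 2.82% ± 0.516 of own-strand counts and 1.20% of all reads in the table, a larger denominator by construction. Of 40 alternative values, 35 kept direction and call or moved within 1 SD, a count that includes the values without 1 library. The lowest count of a member was 976. Reads mapped to several places are not assigned to genes, so the levels of hairpins with shared arms would leave such reads out.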

Other observations

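Members of a cluster differed from each other in how far they moved between the libraries, a spread that no scaling changes. The log2 ratio of replicate 1 over replicate 2 spread by 0.42 within the Mir23a cluster, where Mir23a was at -0.80 and Mir27a at -0.38, and by 0.25 within the Mir23b cluster. Over the 10 other clusters, with 2 to 6 listed members, the spread ran from 0.03 to 1.84, with a median of 0.22. A spread can only stay or rise as members are added, and it includes counting error. The widest was the cluster of Mir100, Mirlet7a-2 and Mir125b-1, and the narrowest Mir99b with Mir125a. No explanation of these spreads was tested.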
